A study of Drosophila melanogaster with 32 samples.

Results

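The genes described here are His2Av, His3.3A, His3.3B and His4r, the replacement histone genes of Drosophila melanogaster that lie as single copies outside the repeated histone gene cluster. They were chosen by name, and are 4 of the 17684 annotated genes on the chromosome arms. Each was assigned every ChIP-seq peak that overlapped its annotated span widened by 1 kb on either side. ChIP-seq, chromatin immunoprecipitation with sequencing, maps where a protein sits on chromatin. All libraries came from Kc167, a female cell line derived from embryos and kept at 25 °C. In the first experiment M1BP, CP190, Su(Hw) and Mod(mdg4) were mapped in cells that received double-stranded RNA for M1BP (M1BPKD, 20 µg, 5 days) and in mock cells. In the second, M1BP and CP190 were mapped in cells that received double-stranded RNA for Cp190 (Cp190KD, 12 µg, 5 days) and in a second mock set. The labels do not say what the mock cells received. There were 2 libraries in each of 12 groups and 1 peak list for each, 24 in all, and the 8 input libraries were not analysed here. The labels do not say whether the libraries of a group came from separate cultures, so their spread may be technical.

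Most histone protein is made in S phase from the repeated cluster, and the replacement genes supply histones throughout the cell cycle. His2Av encodes H2Av, which in flies combines the roles of the vertebrate variants H2A.Z and H2A.X in transcription and in DNA damage signalling. His3.3A and His3.3B encode the same protein, H3.3, which is placed into chromatin independently of replication and marks transcribed regions. His4r encodes a histone H4 with the same amino acid sequence as the H4 of the cluster, from a transcript that does not depend on replication. M1BP recognises the Motif 1 element, common in housekeeping promoters, through its zinc fingers. Su(Hw) is a zinc-finger protein that recruits CP190 and Mod(mdg4) to insulators, elements that separate regulatory domains, and CP190 is also found at many promoters. The study's design asks whether insulator proteins overlap with M1BP and depend on it, and whether M1BP depends on CP190.

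The lists held 113005 peaks, from 1699 to 8443 in a list, and the sources used here give no read depth, so these numbers limit the precision. The targeted proteins had shorter lists after knockdown. M1BP had 1776 and 1699 peaks in M1BPKD cells, against 2980 and 2781 in mock cells. CP190 had 2031 and 2150 peaks in Cp190KD cells, against 8443 and 8197 in the second mock set. These files do not measure the protein left after either knockdown, and the lists hold no expression values against which the cell line could be checked. Positions are those of the deposited lists, whose sequence names and largest mitochondrial coordinate (19524) match the dm6 build.

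All 4 genes carried peaks within 1 kb, and M1BP and CP190 peaked at ends of these genes or of close neighbours. His4r (3R, 14625755 to 14626614) had a peak in 23 of the 24 lists, and 1.49% of all genes had peaks in as many or more. That number rests on the widening by 1 kb. The Su(Hw) peaks of 4 lists and the Mod(mdg4) peaks of 3 lay inside the neighbouring gene put and did not reach the span of His4r itself. His2Av (3R, 26866929 to 26869220) had a peak in 14 lists, a number that 26.9% of genes reached. His3.3A (2L, 5055058 to 5056149) and His3.3B (X, 9152523 to 9156669) had one in 12 lists each, which 35.1% of genes reached. His4r alone of the 4 had Su(Hw) within 1 kb, and His3.3B alone had peaks at both of its ends. His3.3A alone of the 4 lost both M1BP after M1BP knockdown and CP190 after CP190 knockdown, as defined with the values. Taken singly, these losses were found at 30.1% and 63.9% of the genes bound in both mock lists. The CP190 loss did not hold with lists of equal length.

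Each gene has a close neighbour, and the annotation used here gives no strand, so gene ends are named by their lower or upper coordinate. At His2Av the 8 CP190 summits lay 85 to 116 bp outside the lower gene end, in the 121 bp that separate it from ball, which encodes a kinase of histone H2A. They were nearer to the end of ball, at 6 to 37 bp. The 5 M1BP summits lay from 133 bp outside the lower end of His2Av to 94 bp inside it. At His4r the 8 M1BP summits lay from 47 bp outside to 10 bp inside the lower end, around the 51 bp that separate it from put, a receptor gene of BMP and activin signalling. The 8 CP190 summits lay 19 to 125 bp outside that end, some of them inside put. The 4 Su(Hw) summits lay 528 to 581 bp from that end, inside put.

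At His3.3A the 6 M1BP summits lay 54 to 110 bp inside the lower gene end and the 6 CP190 summits from 7 bp outside to 58 bp inside it. The neighbouring gene on that side, CG14036, ends 41 bp away. At His3.3B the first CP190 site had its 6 summits 251 to 305 bp below the lower gene end, in the 546 bp between His3.3B and Bap111, which encodes a subunit of the Brahma chromatin remodelling complexes. The second had its 8 summits from 31 bp inside to 119 bp outside the upper end, where 259 bp separate His3.3B from Ost48, a gene of protein N-glycosylation. The map of peaks around the genes shows these sites.

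**Figure D1:**
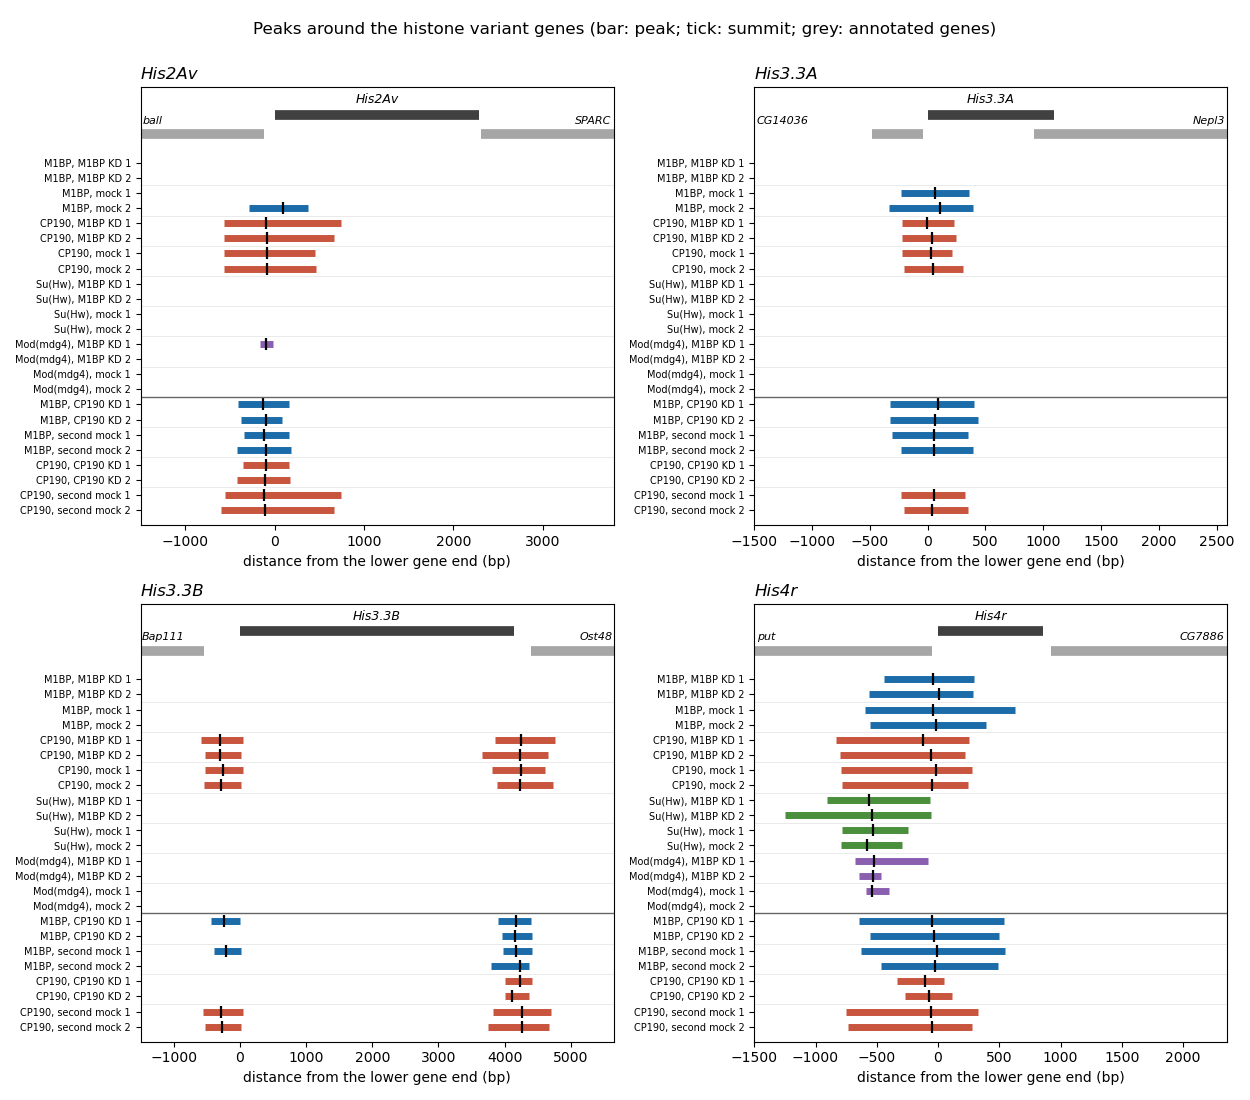
Peaks of the 24 lists around each gene. The x axis gives the distance in bp from the gene end with the lower coordinate, each row is 1 list, bars are peaks coloured by antibody, ticks are summits and the grey bars on top are the annotated genes. KD means knockdown. Peaks of M1BP and CP190 lie over the same gene ends, His3.3B has sites at both ends, and Su(Hw) and Mod(mdg4) lie 521 to 581 bp from the lower end of His4r.

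Where M1BP and CP190 both had a peak in libraries of the same treatment and replicate number, their summits lay close together. At His4r they were 24 to 86 bp apart in 8 pairs of libraries (median 45 bp), and at His3.3A 1 to 63 bp apart in 4 pairs (median 26 bp). At His2Av they were 1 to 179 bp apart in 5 pairs (median 7 bp), and at the upper end of His3.3B 21 to 90 bp apart in 4 pairs (median 47.5 bp). Su(Hw) at His4r had its own position, 485 to 565 bp from the M1BP summit in 4 pairs. Mod(mdg4) there lay 5 to 43 bp from the Su(Hw) summit in 3 pairs.

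Values of peaks are given as fold enrichment, the ratio of ChIP over control that the authors' caller wrote for each peak, and for a gene with several peaks as the highest. Folds are not scaled between libraries, so they are set side by side and no test was run on them. A lost gene had a peak in both mock lists and no peak after knockdown, a retained gene had one in all 4 lists, and a gained gene had one in both lists after knockdown and none in mock cells. With 2 libraries against 2 the exact permutation test, two-sided, cannot give a p below 0.333, and the classes are given as descriptions. A list without a peak has none past the authors' threshold of q = 0.05, and weaker binding there cannot be seen.

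M1BP knockdown separated the 2 histone genes that M1BP bound in both mock libraries. His3.3A had no M1BP peak in either M1BPKD library, against folds of 15.03 and 13.6 in the mock libraries, and was lost. His4r had folds of 10.3 and 12.7 in M1BPKD cells, against 24.3 and 20.0 in mock cells, and was retained. Both knockdown values were lower, as at 89.6% of the genes with M1BP in all 4 lists. Of all genes with M1BP in both mock lists 30.1% were lost and 63.7% were retained, and 1 of 2 in either class says nothing particular about the histone genes. In the first experiment M1BP had no peak at His3.3B in any of its 4 lists. At His2Av it had none in either M1BPKD library, and in mock cells a peak in replicate 2 alone (fold 3.34, -log10 q 5.86), so that gene was not classed.

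The site at His3.3A had been of middling strength. Its M1BP peak stood at percentiles 54.98 and 57.2 of fold in the 2 mock lists, where 100 is the strongest peak. The peak at His4r stood at percentiles 82.8 and 77.8 in the M1BPKD lists, against percentiles 82.9 and 80.1 in the mock lists. These lists differ in length. Among the 2983 genes with M1BP in all 4 lists, which gives each list the same genes to rank, His4r stood at percentiles 76.4 and 71.7 after knockdown and at percentiles 64.0 and 60.9 in mock cells. A higher rank in both knockdown lists than in either mock list was found at 40.9% of those genes.

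**Figure D2:**
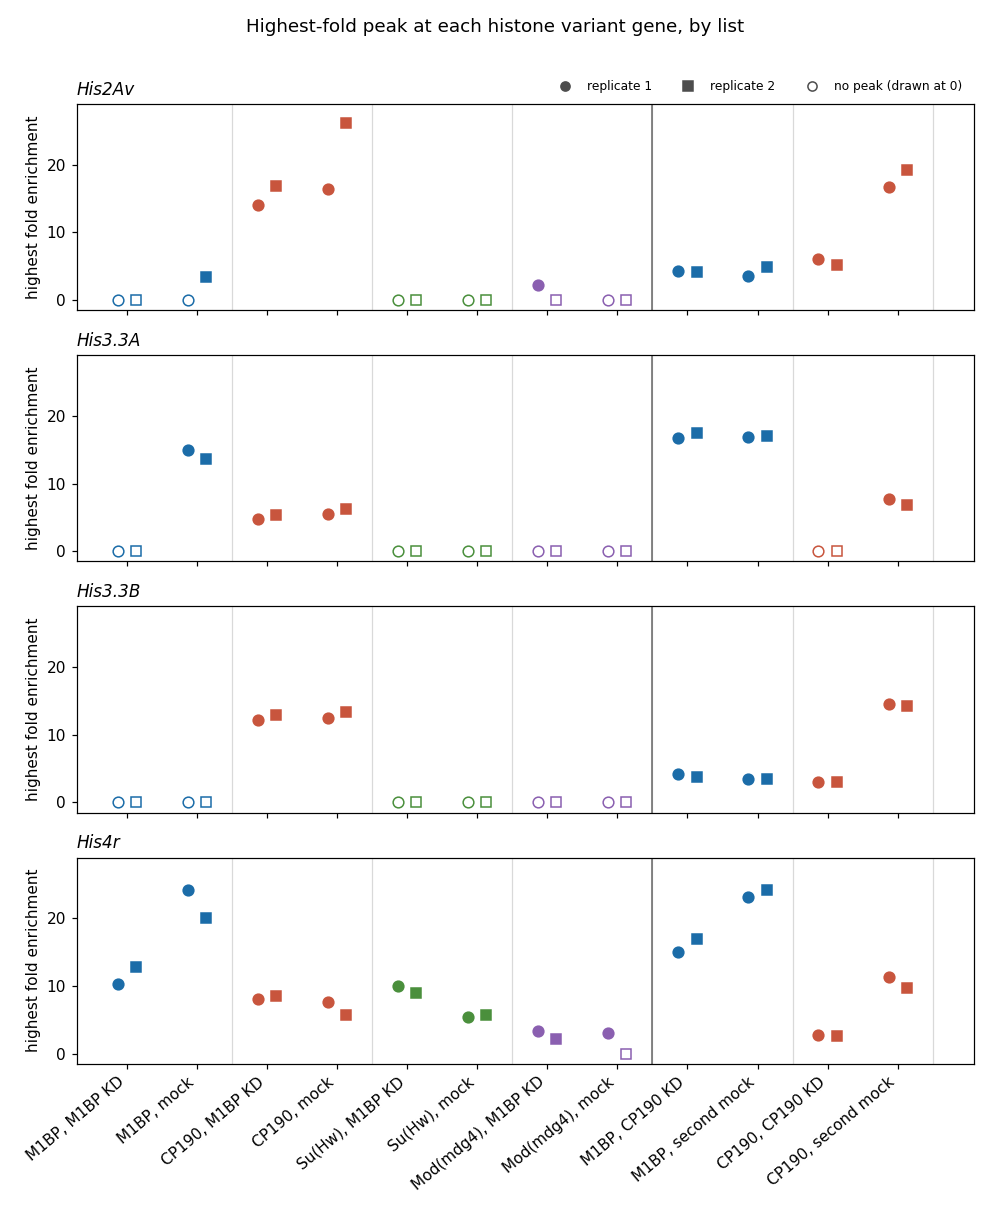
Highest fold enrichment of any peak at each gene in each of the 24 lists. The x axis gives the antibody and treatment (KD means knockdown), the y axis the fold over control without units, circles and squares the 2 replicates, and open symbols at 0 lists without a peak. M1BP at His3.3A is absent from both M1BP knockdown lists and lies at 15.03 and 13.6 in mock lists, and CP190 at His3.3A is absent from both CP190 knockdown lists.

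CP190 stayed at all 4 genes when M1BP was knocked down. It had a peak in both libraries of both treatments at each of them. In mock cells 49.9% of all genes had CP190 in both lists, and 95.1% of those were retained after knockdown, so 4 of 4 is near the background. His2Av had CP190 folds of 14.0 and 16.8 in M1BPKD cells, against 16.5 and 26.2 in mock cells. The upper end of His3.3B had 12.1 and 12.9 in M1BPKD cells, against 12.6 and 13.3 in mock cells, and its lower end had 9.18 and 7.98 in M1BPKD cells, against 7.84 and 7.99 in mock cells. The folds of the 2 treatments overlapped at His2Av and at both ends of His3.3B.

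The 2 genes with M1BP in both mock lists had lower CP190 folds than His2Av and His3.3B in every list. His4r had CP190 folds of 8.002 and 8.57 in M1BPKD cells, against 7.67 and 5.76 in mock cells. His3.3A, which lost its M1BP peak, had 4.70 and 5.35 in M1BPKD cells, against 5.46 and 6.23 in mock cells. At His4r both knockdown values were the higher ones, as at 15.4% of the 8394 genes with CP190 in all 4 lists, and at His3.3A both were the lower ones, as at 41.6%. By rank among those genes His4r stood at percentiles 43.5 and 45.6 after knockdown and at percentiles 40.2 and 23.4 in mock cells, and a difference of means as large was found at 9.53% of them. His3.3A stood at percentiles 17.1 and 22.9 after M1BP knockdown and at percentiles 22.2 and 27.8 in mock cells, which overlap. His3.3B stood slightly higher, at percentiles 61.72 and 63.03 after knockdown, against percentiles 59.36 and 61.66 in mock cells. A difference of means as large as at His3.3B was found at 41.4% of the genes. His2Av overlapped, at percentiles 67.6 and 73.5 after knockdown, against percentiles 69.2 and 86.6. Of those genes 26.1% stood higher in both knockdown lists and 24.6% lower. M1BP was lost and CP190 was retained, as at His3.3A, at 26.3% of the genes that carried both proteins in both mock lists, and among genes that lost M1BP and had CP190 in both mock lists 93.3% retained CP190.

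The order of the genes by CP190 fold held in nearly every list. His2Av was highest and the upper end of His3.3B next in all 8 CP190 lists. His4r came after them and His3.3A last, except in mock replicate 2, where His3.3A (6.23) stood above His4r (5.76). In mock cells of the first experiment these neighbours overlapped (7.67 and 5.76 at His4r, 5.46 and 6.23 at His3.3A), and in the other 3 groups they did not. For M1BP the order in the mock lists of the first experiment was His4r and then His3.3A, by 24.3 against 15.03 in replicate 1 and 20.0 against 13.6 in replicate 2.

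Su(Hw) and Mod(mdg4) were found near His4r, and Mod(mdg4) alone, in 1 list, at His2Av. At the site near His4r, Su(Hw) had folds of 9.98 and 8.97 in M1BPKD cells, against 5.35 and 5.68 in mock cells, and was retained. In mock cells 15.9% of all genes had Su(Hw) in both lists, and 99.3% of those were retained. The groups did not overlap, and both knockdown values were higher at 17.8% of the genes with Su(Hw) in all 4 lists. Su(Hw) folds over the whole lists ran the other way, with medians of 8.40 and 9.26 in M1BPKD cells and of 10.7 and 11.3 in mock cells. The M1BPKD lists were longer, with 5577 and 5324 Su(Hw) peaks against 4579 and 4544 in mock cells. The part of list length in these medians was not tested. Among the 2784 genes with Su(Hw) in all 4 lists the site stood at percentiles 38.8 and 27.2 after knockdown, against percentiles 12.2 and 13.04 in mock cells. A higher rank in both knockdown lists was found at 27.7% of these genes, and 6.29% of them had as large a difference of means as the 20.4 percentile points at His4r.

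Mod(mdg4) at the same site had folds of 3.33 and 2.13 in M1BPKD cells and of 3.04 in mock replicate 1, and no peak in mock replicate 2, where the nearest peak lay 10613 bp away. At His2Av it had 1 peak, in M1BPKD replicate 1 (fold 2.22), over the CP190 summit. Neither gene was classed for Mod(mdg4). Su(Hw) had no peak within 1 kb of the other genes in any of its 4 lists, and its nearest peak lay 8396 to 8458 bp from His3.3B, inside mei-P26. Near His3.3A the Su(Hw) peak called in both M1BPKD libraries and in mock replicate 1 was 8818 to 8896 bp away. M1BP, CP190 and Su(Hw) each had a peak within 1 kb of the same gene in both mock lists at 3.47% of all genes. His4r was among them, with Su(Hw) at its own position.

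CP190 knockdown left CP190 peaks at 3 of the 4 genes. All 4 had CP190 in both libraries of the second mock set, as did 53.1% of all genes. Of the genes bound there 28.2% were retained and 63.9% were lost. His2Av had CP190 folds of 6.05 and 5.19 in Cp190KD cells, against 16.8 and 19.2 in the second mock set. His3.3B had 2.98 and 2.98 in Cp190KD cells, against 14.5 and 14.3 in the second mock set, and the peaks left were those at its upper end. Its lower end had no CP190 peak in either Cp190KD library, against 9.35 and 8.79 in the second mock set.

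His4r had CP190 folds of 2.67 and 2.55 in Cp190KD cells, against 11.3 and 9.66 in the second mock set. His3.3A had no CP190 peak in either Cp190KD library, against 7.77 and 6.80 in the second mock set, and was lost. At the 3 genes that kept a peak both knockdown values lay below both mock values, as at 99.6% of the genes with CP190 in all 4 lists. The peaks left at His3.3B and His4r were weak, with -log10 q between 6.76 and 7.96, and with a limit of 10 on -log10 q 3 of the 4 genes were lost and His2Av alone was retained. With each list held to its 2031 highest folds, His3.3A had no peak in any of the 4 lists and was no longer lost, His2Av was retained, and His3.3B and His4r had peaks in the knockdown lists alone. Among the 2651 genes with CP190 in all 4 lists His2Av stood at percentiles 52.5 and 43.3 after knockdown, against percentiles 29.5 and 38.7 in the second mock set. His3.3B stood lower, at percentiles 8.86 and 10.6 after knockdown, against percentiles 17.5 and 15.2, and His4r overlapped, at percentiles 3.75 and 3.23 after knockdown, against percentiles 5.73 and 1.34. A higher rank in both knockdown lists was found at 29.9% of these genes and a lower one at 27.4%.

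M1BP stayed at all 4 genes when CP190 was knocked down, including His3.3A, where the CP190 peak was lost. It had a peak in all 4 lists at each, as did 93.3% of the genes with M1BP in both second mock lists. His3.3A had M1BP folds of 16.7 and 17.5 in Cp190KD cells, against 16.9 and 17.1 in the second mock set. His4r had 15.04 and 17.0 in Cp190KD cells, against 23.1 and 24.2 in the second mock set. The groups overlapped at His3.3A. At His4r both knockdown values were lower, as at 62.8% of the genes with M1BP in all 4 lists.

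The genes with weak M1BP sites kept them as well. His2Av had M1BP folds of 4.29 and 4.16 in Cp190KD cells, against 3.55 and 4.89 in the second mock set. The upper end of His3.3B had 4.21 and 3.70 in Cp190KD cells, against 3.44 and 3.52 in the second mock set. Its -log10 q was 17.7 and 13.7 in Cp190KD cells, against 8.52 and 5.97 in the second mock set. With a limit of 10 on -log10 q His3.3B was therefore gained and not retained. Both knockdown values were the higher ones at His3.3B, as at 5.06% of the genes with M1BP in all 4 lists. By rank among those genes His3.3B stood at percentiles 13.9 and 11.5 after knockdown, against percentiles 6.10 and 5.94 in the second mock set. A difference of means as large was found at 25.8% of them. The lower end of His3.3B had an M1BP peak in Cp190KD replicate 1 (3.69) and in second mock replicate 1 (2.25) and none in either replicate 2. M1BP was retained and CP190 lost, as at His3.3A, at 56.2% of the genes with both proteins in both second mock lists.

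Among the 5417 genes with M1BP in all 4 lists of this comparison His3.3A stood higher after knockdown. It was at percentiles 71.7 and 77.2 in Cp190KD cells, against percentiles 48.8 and 46.8 in the second mock set, a difference of means of 26.6 percentile points that 1.86% of these genes reached. Its folds overlapped between the 2 treatments, and the list medians were 7.81 and 8.13 in Cp190KD cells against 8.99 and 12.6 in the second mock set. His4r stood at percentiles 62.3 and 74.4 in Cp190KD cells, below percentiles 78.6 and 75.4 in the second mock set. A higher rank in both knockdown lists was found at 23.8% of these genes and a lower one at 21.6%. The plot of ranks shows these places.

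**Figure D3:**
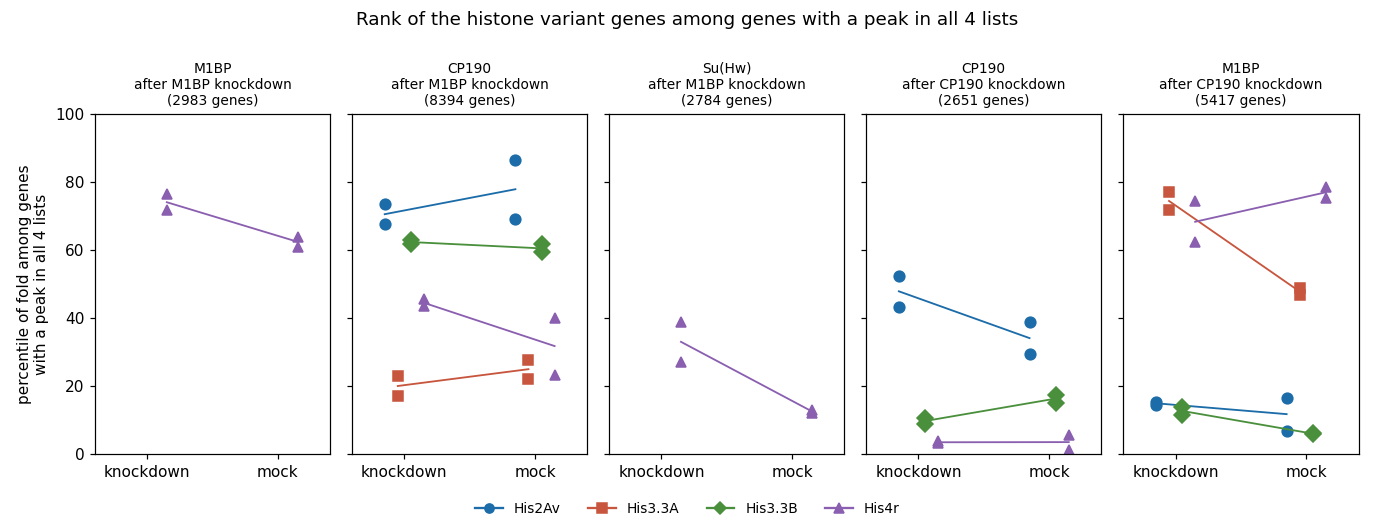
Percentile of each gene by its highest fold among the genes with a peak in all 4 lists of a comparison, where 100 is the strongest. Panels are comparisons, points are lists, with knockdown left of mock, and lines join the group means. His3.3A lies at 71.7 and 77.2 for M1BP after CP190 knockdown and at 48.8 and 46.8 in the second mock set, and Su(Hw) at His4r lies higher after M1BP knockdown.

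The 2 mock sets differed at the genes with weak M1BP sites. M1BP had peaks at all 4 genes in both libraries of the second mock set, as at 32.8% of all genes, and at 2 of the 4 in both mock libraries of the first experiment, as at 26.5%. His3.3B had M1BP in both second mock lists and in neither mock list of the first, which was so for 7.1% of the genes without M1BP in the first. The second mock set had 3844 and 3426 M1BP peaks, against 2980 and 2781 in the first, and the part of list length in this difference was not tested. M1BP and CP190 each had a peak within 1 kb of the gene in both second mock lists at 30.7% of all genes, all 4 histone genes among them. In both mock lists of the first experiment this was so at 23.5%, with His3.3A and His4r among them.

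The limit of 1 kb decided what was counted at His3.3B. An M1BP peak at the far end of Ost48 lay 1644 and 1626 bp from His3.3B in M1BPKD cells (folds 3.14 and 3.15), against 1473 and 1397 bp in mock cells (12.6 and 13.6), and was left out. The Su(Hw) site of His4r lay inside the limit. With a widening of 250 bp the Su(Hw) peak of mock replicate 2, which ended at 14625458, was not reached. The Su(Hw) peaks of the other lists were still reached, so that 1 list decided the class at 250 bp. Without widening none of the 4 Su(Hw) peaks reached His4r. The one that came nearest ended at 14625699, below the lower gene end at 14625755.

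Genes whose fold values over the 24 lists were most like those of each histone gene were sought by the root mean square difference of log2(fold + 1), with 0 for a list without a peak. For His3.3A they were CG30096, CG6845 and CG4282, with differences of 0.11 to 0.13 on the log2 scale. For His3.3B they were sofe, CG14591 and SCAP (0.13 each), the last 2 at the same value. For His2Av they were Idh3a (0.17), pico (0.28) and Nup205 (0.29). His4r had no gene as near, with Alg1 at 0.69, CG4911 at 0.74 and MCTS1 at 0.76. Between the histone genes themselves the nearest were His2Av and His3.3B (0.64), while His3.3A and His3.3B, which encode the same protein, differed by 1.59.

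Genes that work with these histones were described from 3 lists, of which 43 of 44 names matched a gene. Of 28 with M1BP in both mock lists, 8 were lost after M1BP knockdown and 20 retained, beside 30.1% and 63.7% of all such genes. The chaperone list lost 2 of 10, yem (5.62 and 5.61 in mock cells), a partner of the H3.3 chaperone Hira, and the gene of a subunit of CAF-1, the factor that assembles nucleosomes at replication (13.4 and 14.2). Hira itself had M1BP folds of 4.86 and 5.06 in M1BPKD cells, against 20.1 and 14.2 in mock cells, and was retained, as was asf1, a chaperone of H3 and H4 (4.34 and 5.52 in M1BPKD cells, against 18.4 and 14.6 in mock cells). The H2Av exchange list lost 2 of 11, E(Pc), of the Tip60 complex (6.44 and 4.11 in mock cells), and Arp8, of the Ino80 complex (19.1 and 22.9). It retained dom, the ATPase that exchanges H2Av, with folds of 4.87 and 6.53 in M1BPKD cells, against 30.5 and 30.2 in mock cells.

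The list for histone mRNA and the histone locus body lost M1BP at 4 of 7 genes, beside 30.1% of all genes with M1BP in both mock lists. Among the 4 were Slbp, which binds the stem-loop of histone mRNA (21.3 and 19.5 in mock cells), and Sym, a factor of histone mRNA processing (16.1 and 14.4). The others were wge (4.03 and 3.38) and mxc, the scaffold of the histone locus body (3.53 and 3.02). Both were weak beside the median folds of 13.2 and 11.9 in the mock M1BP lists. CP190 was retained after M1BP knockdown at 36 of 37 list genes bound in both mock lists. It was lost at Cpsf73, the endonuclease of histone mRNA processing (4.88 and 4.85 in mock cells), and 2.74% of all bound genes lost it. CP190 was gained at Lsm11, of the U7 particle that processes histone mRNA (2.32 and 2.51 in M1BPKD cells) and Cpsf100, a partner of Cpsf73 (3.01 and 3.51), 2 of 6 list genes unbound in mock cells, beside 2.8% of all such genes. Cpsf100 had CP190 peaks in the second mock set as well (3.77 and 3.53), so its class rests on the mock lists of the first experiment, and Lsm11 had none there.

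Su(Hw) had no peak in both mock lists at any of the 43 genes. After M1BP knockdown it was gained at 3 of the 42 without a mock peak, the gene of another CAF-1 subunit (3.14 and 3.12 in M1BPKD cells), dre4, a subunit of the chaperone FACT (2.57 and 2.49), and Lsm10, also of the U7 particle (2.44 and 2.13), beside 2.32% of all such genes. After CP190 knockdown 26 of 38 list genes lost CP190 and 8 retained it, beside 63.9% and 28.2% of all genes bound in the second mock set, and M1BP was retained at 35 of 36, beside 93.3%. The exception was Nipped-A, a scaffold subunit of histone acetyltransferase complexes, whose M1BP peaks in the second mock set (4.94 and 2.76) were lost. Nipped-A had no M1BP peak in any list of the first experiment, so its class rests on peaks of the second mock set alone. Of all genes with M1BP in both second mock lists 2.55% lost it. M1BP was gained at 1 of 7 list genes unbound there, rept, an ATPase subunit of chromatin remodelling complexes (2.82 and 3.08 in Cp190KD cells), beside 1.67% of all such genes.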

How the data were processed

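Peak lists of 24 ChIP-seq libraries were used. The submitters' processing notes name MACS2 2.2.5, Picard 2.20.2, Bowtie2 2.3.5 and SAMtools 1.9, without order or options. Peak names show that the authors called peaks for each library. The fold enrichment of a peak, its -log10 p and its -log10 q are values the authors deposited, and no peak had a -log10 q under 1.30 (q = 0.05). The deposited integer score was not used. The other deposited value is the summit position.

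The build is not given in the labels, and the names match dm6. Gene spans came from a RefSeq gene table of that assembly, without strand. A gene had a peak when at least 1 bp overlapped its span widened by 1000 bp, so genes that share a peak are each counted. Percentiles were taken within a list, or over the genes with a peak in all 4 lists of a comparison. No fold was tested, and shares of all genes stand beside the counts. A genome sequence was not used here, so the motif search that had been planned was left out. The overlap step was tested on simulated peaks. Python 3.11.15, pandas 2.3.3, numpy 2.4.6 and SciPy 1.17.1 were used.

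The genes, the 3 lists (histone chaperones, H2Av exchange complexes, histone mRNA and histone locus body) and the alternatives were chosen with earlier results of these data known. The naming rule takes the 4 genes, their neighbours, the 3 genes of most similar pattern for each, and, from each list, the genes with the highest mock folds and those lost or gained. Not every gene that it picks is reported here. The alternatives were other widenings, summits in place of peaks, a stricter threshold, lists of equal length, leaving out each library and a replicate block.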

Additional observations from a re-analysis of the deposited data

How the results depend on the processing

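Of 198 alternatives for the counts of the 4 genes that were lost, retained or gained, 185 gave a count within 1.5 times the main one. Most main counts were 0 and stayed 0 in nearly all alternatives, so this share says little about the counts above 0. Without mock replicate 1, 2 genes in place of 1 lost M1BP after M1BP knockdown (range 1 to 2 over the libraries left out). Leaving out single libraries, 0 to 1 gene retained and 0 to 1 gained Mod(mdg4), that gene being His4r or His2Av. With a widening of 2000 bp, 2 genes in place of 1 retained M1BP after M1BP knockdown, since the peak at the far end of Ost48 was then counted for His3.3B. Without widening, and with 250 bp, 0 genes retained Su(Hw). With a limit of 10 on -log10 q, 3 genes lost and 1 retained CP190 after CP190 knockdown. With the same limit 3 genes in place of 4 retained M1BP after CP190 knockdown, and 1, His3.3B, gained it. With lists of equal length 0 lost, 1 retained and 2 gained CP190 after CP190 knockdown, since the mock lists were then held to their strongest peaks. The replicate block, which requires a class in each pair of lists with the same replicate number, gave the same count in all 18 results, by construction (1 lost and 1 retained for M1BP after M1BP knockdown). Fold deviations of same-numbered libraries correlated at -0.02 to 0.15 across genes, which are not replicates, and the labels do not say that the numbers pair samples. Peak numbers limit what can be seen, and weak sites near the authors' threshold, as for M1BP at His2Av and His3.3B, can be missed in a list.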
